A study of Mus musculus with 4 samples.

Results

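The comparison of 2 libraries from EO771 tumours, the CD103int dendritic cells (DC) and the type 2 conventional dendritic cells (cDC2), is described here through the genes that stood 2-fold or more apart between them. A gene was taken when its value was at least 10 in the higher of the 2 libraries and the difference of log2(value + 1) was at least 1 in size. Of 13976 genes in the table, 8119 reached the minimum and 181 were 2-fold or more apart, 127 of them higher and 54 of them lower in the CD103int DC. The rule used these values themselves, so the counts and levels are a description. RNA was sequenced in bulk from 4 sorted mouse populations, with 1 library each for CD103+ cDC1, CD11b+ cDC2, the CD103int DC, which the labels give as CD103intCD11b+, and macrophages. All 4 came from tumours of EO771, a mouse mammary carcinoma line. The title names heterodimeric interleukin-15 (hetIL-15) given near the tumour. The labels do not state whether these tumours were treated, the strain or age of the mice, the gates of the sort, or how many mice or cells went into a library.

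Conventional dendritic cells take up antigen and present it to T cells. cDC1 depend on Batf3 and Irf8, carry CD103 or CD8 and are known for presenting antigen to CD8 T cells, while cDC2 carry CD11b and Sirpa, use Irf4 and mainly present to CD4 T cells. In tumours, cells that arise from monocytes can carry CD11b, CD11c and MHC class II too, which makes them hard to set apart from cDC2 by surface markers alone.

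All values are counts per 1000000 reads (CPM) after the authors' scaling of the library sizes (TMM, the trimmed mean of M values). Where 4 values stand in a row, cDC1 comes first, then cDC2, the CD103int DC and last the macrophages. The macrophage column of the deposited data has a different name prefix from the other columns, which the labels do not explain. With 1 library per population there was no replicate error and no test, and "higher" and "lower" state how these libraries stood to each other. The steps of the values gave about 44940500 reads for cDC2 and 55960049 for the CD103int DC, so that 10 CPM stood for 464 and 574 reads. A range after a fold is its 95% Clopper-Pearson interval from counting alone; it leaves out the variation between animals, sorts and libraries, and amplified reads are not independent molecules. Gene models that collect ribosomal RNA held 5.94% of the cDC2 and 7.08% of the CD103int DC total, against 12.5% in cDC1 and 11.3% in the macrophage library. In bulk RNA, fewer cells of a type and less RNA per cell cannot be told apart, and a mixture of cells cannot be told from 1 kind of cell with an intermediate level.

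The libraries were close over most genes. The median difference over the 8119 genes was 0.02 on the log2(CPM + 1) scale, 7938 genes were within 2-fold and 7533 within 1.5-fold. The higher genes made up 1.56% of those measured at 10 or more, the lower genes 0.665% and both together 2.23%. A 4-fold difference was reached by 16 of the higher genes but by only 1 of the lower genes, and a 3-fold difference by 30 and 7. Counting error was small at this depth. The counting interval lay beyond 1.5-fold for 126 of the 127 higher and for all 54 lower genes, which follows largely from the rule that picked them. It lay beyond 2-fold for 108 of the higher and 50 of the lower genes. Just inside the threshold on the higher side were Ahnak (2482 and 4972 CPM in cDC2 and the CD103int DC), Tacc3 and Ncs1, and just outside it Kifc1, Espn and Car5b, of which Kifc1 stood at 4.95 and 10.9 CPM in cDC2 and the CD103int DC. On the lower side Cd276, Acod1 and H2-Eb2 were just inside, and Ets1, C3ar1 and Stab1, with C3ar1 at 303 and 152 CPM, just outside. Of the higher genes, 48 had under 20 CPM in the CD103int DC, and of the lower genes 14 had under 20 CPM in cDC2, so that many rest on a low level in the other library.

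**Figure D1:**
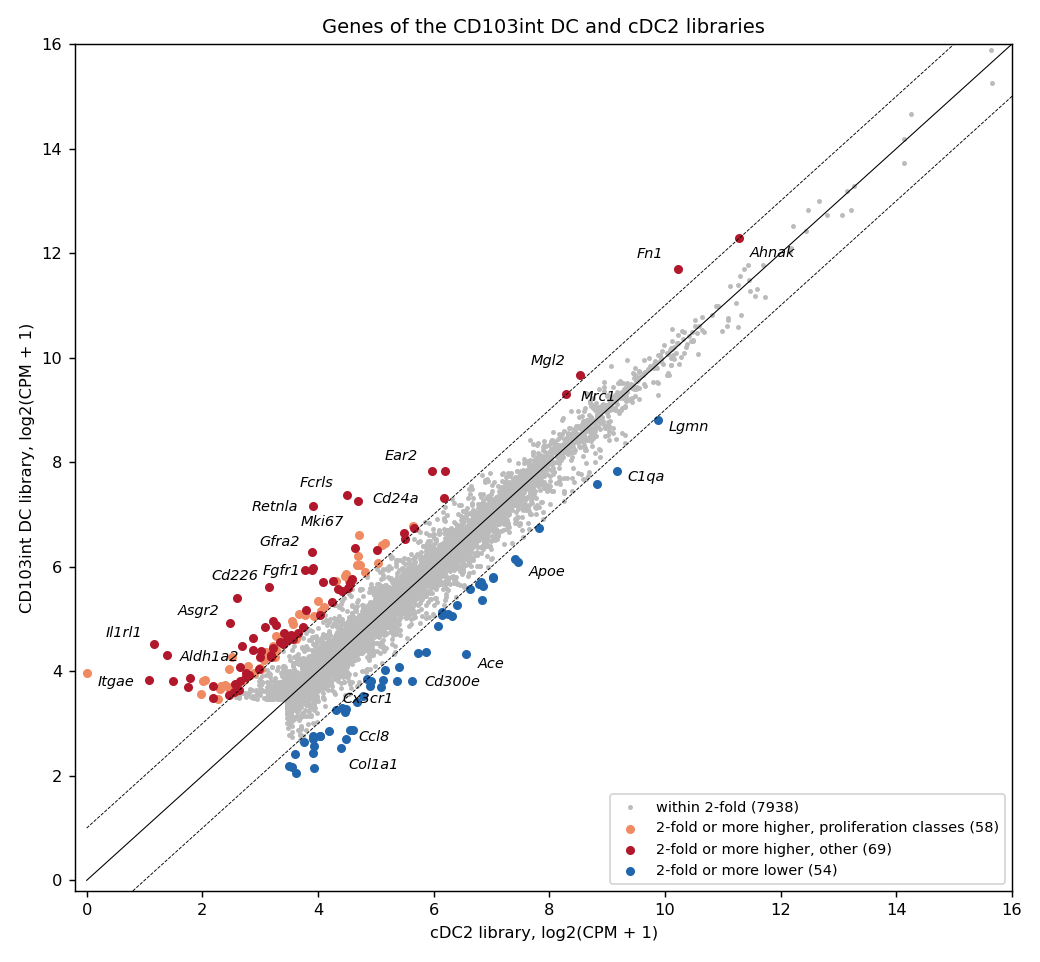
Levels of the 8119 genes with at least 10 CPM in the higher of the 2 libraries, as log2(CPM + 1) in cDC2 (horizontal axis) and in CD103int DC (vertical axis), each point being 1 gene. The solid line marks equal levels and the dashed lines 2-fold; 58 orange points are higher genes of the proliferation classes, 69 red points the other higher genes and 54 blue points the lower genes, and most genes lie between the dashed lines.

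Proliferation genes were the largest block among the higher genes. Of the 127 genes, 58 belonged to lists of mitosis and cytokinesis, DNA replication or replication-dependent histones, and no gene of these lists was 2-fold lower. The 146 listed genes with at least 10 CPM had a median difference of 0.88, against 0.02 over all genes measured at that level, and 144 of them were above 0. A separate cell cycle list, of cyclin-dependent kinase inhibitors and G1 cyclins, did not follow. None of its 14 tested genes was 2-fold apart and its median was 0.02. Dividing cells copy their DNA in S phase, make histones to package it, and then build the spindle and divide in mitosis.

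Mitosis genes differed most. Of 76 measured genes of this list 45 reached 10 CPM, of which 24 were 2-fold higher and the median difference was 1.05. Over all 76, which does not depend on that minimum, 39 were 2-fold higher, none was 2-fold lower and 75 were above 0. Mki67, which codes for the proliferation antigen Ki-67, stood at 42.7, 25, 95.8 and 32.3 CPM. It was highest in the CD103int DC, 3.83-fold (3.59 to 4.08) above cDC2, and the cDC2 library was the lowest of the 4. Aspm, a spindle pole protein, was at 11.7, 3.02, 13.1 and 3.74 CPM, and Knl1, a scaffold of the kinetochore, at 14.6, 3.13, 13.3 and 4.21 CPM. In both genes the CD103int DC and cDC1 libraries were close and the cDC2 and macrophage libraries low. Ccnb2, a mitotic cyclin, was at 19.4, 4.68, 18.3 and 3.77 CPM and Ccnb1, its paralog, at 11.7, 4.55, 11.8 and 3.26 CPM. Top2a, the topoisomerase that untangles DNA before division, was at 113, 34.6, 86.3 and 22.9 CPM, and here cDC1 was above the CD103int DC. Cdc20, an activator of the anaphase-promoting complex, was at 8.68, 5.65, 13.7 and 2.91 CPM and Stmn1, a microtubule-binding protein, at 46.2, 22.2, 51.6 and 8.47 CPM. Of the 21 tested mitosis genes within 2-fold, those of the highest level were tubulins and a histone variant that non-dividing cells also use, among them Tubb5 (717 CPM in cDC2 and 888 in CD103int DC) and Tuba1b (563 CPM in cDC2 and 622 in CD103int DC).

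Genes that copy DNA were higher by less. Of 58 measured, 44 reached 10 CPM and 6 of these were 2-fold higher, with a median difference of 0.48. Over all 58, 7 were 2-fold higher, none was 2-fold lower and 55 were above 0. The 6 were Clspn, a checkpoint adaptor at the fork (3.97 CPM in cDC2 and 11.7 in CD103int DC), Rrm2, a subunit of ribonucleotide reductase (9.57 CPM in cDC2 and 23.4 in CD103int DC), Mcm10 (6.1 CPM in cDC2 and 14.2 in CD103int DC), Uhrf1, which recruits the maintenance DNA methyltransferase (31.7 CPM in cDC2 and 65.8 in CD103int DC), Tyms, thymidylate synthase (5.04 CPM in cDC2 and 11.2 in CD103int DC), and Pole, the leading-strand polymerase (8.54 CPM in cDC2 and 18.3 in CD103int DC). The helicase subunits Mcm2 to Mcm7 were all within 2-fold, with differences of 0.51 to 0.71 and a median of 0.59. Pcna, the sliding clamp, was at 165, 150.1, 165 and 123 CPM.

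**Figure D2:**
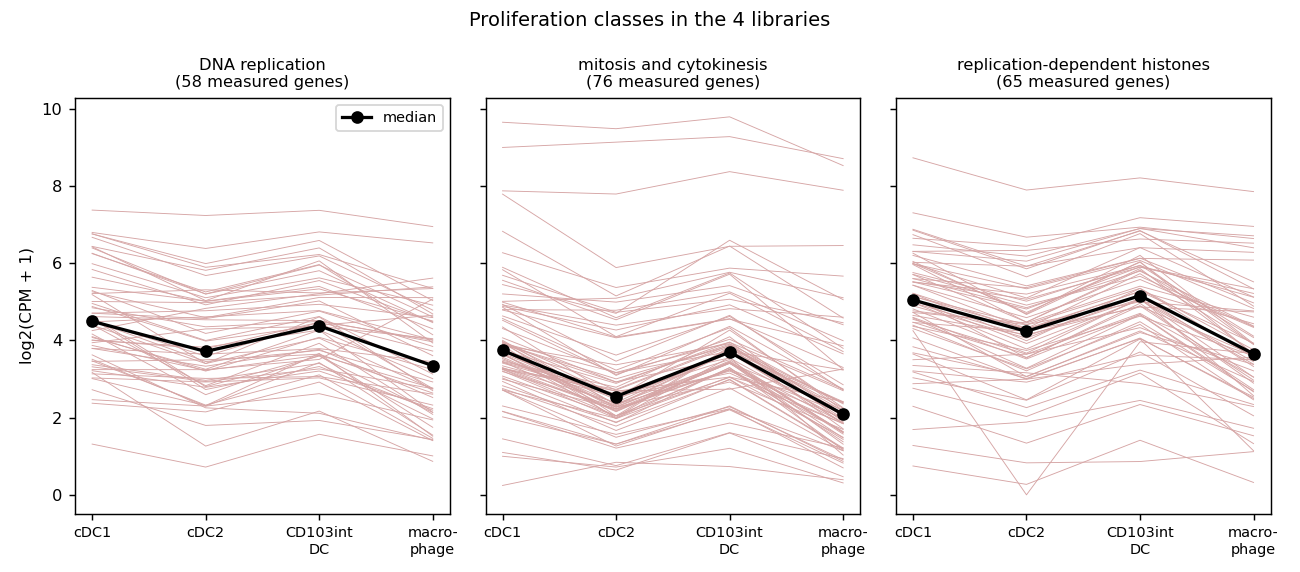
Levels of the measured genes of the 3 proliferation lists in the 4 libraries, as log2(CPM + 1), with 1 thin line per gene and the median of the list in black; lines join the libraries of 1 gene and imply no order. In each list the median is lower in cDC2 and macrophages than in cDC1 and CD103int DC, most clearly for mitosis and histones.

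Promoters of the proliferation genes that were higher were examined because these genes stood together. The windows are the 250 bases before the transcription start in RefSeq, build GRCm38.p6, read 5′ to 3′ on the strand of the gene, and 26 of the 30 higher genes of DNA replication and mitosis were found there, with 27 windows. The letters searched on both strands were CCAAT (the CCAAT box), TTTGAA (the cell cycle genes homology region, CHR), TTCGAA (a CHR variant), TATAAA (the TATA box) and, for an E2F core, TTTCCCGC or TTTGGCGC. In the sequences shown, capitals mark the CCAAT box and the CHR letters (TTTGAA), on either strand. Ccnb2, Top2a and Cdc20 are shown because they hold both a CCAAT box and the CHR letters.
Ccnb2, chr9:70421555-70421804, minus strand: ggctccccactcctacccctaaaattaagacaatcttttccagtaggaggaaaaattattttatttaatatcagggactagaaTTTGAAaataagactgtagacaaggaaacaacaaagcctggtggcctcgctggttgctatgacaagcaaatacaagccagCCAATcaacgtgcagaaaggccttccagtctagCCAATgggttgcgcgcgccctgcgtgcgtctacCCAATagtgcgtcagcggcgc
Top2a, chr11:99024190-99024439, minus strand: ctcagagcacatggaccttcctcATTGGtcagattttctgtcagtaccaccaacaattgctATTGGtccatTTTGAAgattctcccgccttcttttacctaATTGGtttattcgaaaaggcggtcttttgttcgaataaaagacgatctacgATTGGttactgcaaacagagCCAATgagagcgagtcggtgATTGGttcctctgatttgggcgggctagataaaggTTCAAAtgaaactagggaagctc
Cdc20, chr4:118437344-118437593, minus strand: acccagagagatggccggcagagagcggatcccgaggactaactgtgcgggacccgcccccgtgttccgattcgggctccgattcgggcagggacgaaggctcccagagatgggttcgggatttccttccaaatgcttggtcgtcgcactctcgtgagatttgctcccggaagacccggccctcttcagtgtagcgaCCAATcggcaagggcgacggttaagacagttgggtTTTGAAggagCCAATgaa
CCAAT was found in 21 of the 27 windows (77.8%), against 33.8% of the 32851 promoters in the table. TTTGAA was found in 11 windows (40.7%), against 5252 of the 32851. Both sets of letters stood in 9 windows (33.3%), overlapping in 1 of them, against 1823 of the 32851. An E2F core was found in 2 windows (7.41%), against 1.30%, TTCGAA and the interferon-stimulated response element, searched by its usual letters, in 1 each and TATAAA in none. Over the whole tested mitosis list (36 of 45 genes matched, 37 windows) CCAAT was found in 75.7% and TTTGAA in 45.9%. Both were thus about as frequent over that list as in the higher genes. That list holds 24 of the 30 higher genes itself, so these shares cannot show whether the letters set the higher genes apart. All of these are matches of letters in a window and not measured binding.

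Replication-dependent histones, which are made in S phase, were the third list. Of 65 measured, 57 reached 10 CPM and 28 were 2-fold higher, with a median difference of 0.99. Over all 65, 31 were 2-fold higher, none was 2-fold lower and 64 were above 0. The summed level of the H2B genes was 277 CPM in cDC2 and 569 in the CD103int DC, a ratio of 2.05. For H3 the sums were 245 and 529 (2.15), for H4 349 and 668 (1.91), for H2A 419 and 753 (1.8) and for the linker histone H1 435 and 626 (1.44). Hist1h3c stood at 65.2, 24.8, 72.8 and 14.1 CPM and Hist1h2ab at 75.8, 24.5, 64.8 and 11.5 CPM, both with cDC1 and the CD103int DC high and macrophages lowest. Hist1h4m has no fold, since the cDC2 library lists it at 0; its other values were 18.1 CPM (cDC1), 14.6 (CD103int DC) and 11.6 (macrophages). The variant H2afz, made throughout the cell cycle, was at 221 CPM in cDC2 and 331 in CD103int DC, and the replication-independent H3f3b at 612 CPM in cDC2 and 522 in CD103int DC.

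Histone genes are near copies of each other, which bears on these values. In 17 of the 28 higher histone genes over 50% of all stretches of 50 bases also occur in another gene, and in 26 over 10% do, so the counting may have split reads between copies and the family sums are firmer than single genes. The genes lie in clusters. On chromosome 13, 13 of the 19 genes with at least 10 CPM between 21717659 and 22043676 and 14 of the 28 between 23533906 and 23764406 (GRCm38) were higher histone genes. Of the 28 genes, 27 were found in the promoter table, among them the 2 shown here for their CCAAT boxes and, in Hist1h2ab, a TATA box, both in capitals.
Hist1h3c, chr13:23745522-23745771, minus strand: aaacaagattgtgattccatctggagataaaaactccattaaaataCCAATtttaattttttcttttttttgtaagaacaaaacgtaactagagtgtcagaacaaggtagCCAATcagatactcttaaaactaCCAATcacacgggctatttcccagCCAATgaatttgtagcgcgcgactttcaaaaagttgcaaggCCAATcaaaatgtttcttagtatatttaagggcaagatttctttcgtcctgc
Hist1h2ab, chr13:23750838-23751087, plus strand: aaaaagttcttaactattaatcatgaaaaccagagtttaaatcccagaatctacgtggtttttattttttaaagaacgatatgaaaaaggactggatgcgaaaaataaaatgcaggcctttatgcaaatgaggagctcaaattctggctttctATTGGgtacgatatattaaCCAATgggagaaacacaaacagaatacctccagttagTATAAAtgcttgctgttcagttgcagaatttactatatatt
CCAAT was found in 23 of 27 windows (85.2%), TATAAA in 14 (51.9%, against 12.4% of the 32851 promoters) and TTTGAA in 13 (48.1%). Over the whole tested histone list (51 of 57 genes matched, 52 windows) the shares were 82.7%, 46.2% and 40.4%. All 28 higher genes are part of that list, so these shares cannot show whether the letters set its higher genes apart. The share was not read for all genes with at least 10 CPM (6464 of 8113 symbols matched), DNA replication as a whole (34 of 44 genes matched), the type I interferon list (46 of 60), the other higher genes (44 of 69) or the lower genes (38 of 54): under 80% of each set had a promoter in the table, so the check is void for them.

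Outside proliferation, 69 genes were higher and 54 lower among 7973. The markers of the sort and of dendritic cells come first. Itgae codes for CD103, the integrin chain that pairs with Itgb7 and binds E-cadherin (ENSMUSG00000005947.11, chromosome 11, 73090583 to 73147446, plus strand). It stood at 77, 1.1, 13.2 and 5.5 CPM, so that the CD103int DC were 12-fold (9.04 to 16.3) above cDC2 and still well below cDC1. Itgb7 itself was at 234, 138, 154 and 221 CPM and Cdh1, E-cadherin, at 416, 118, 195 and 87.9 CPM. Itgam (CD11b) was at 638 CPM in cDC2 and 688 in CD103int DC and Itgax (CD11c) at 1438 CPM in cDC2 and 1280.2 in CD103int DC. Cd24a, a small glycoprotein that also marks cDC1, was at 241, 24.9, 151 and 30.5 CPM, 6.07-fold (5.71 to 6.46) above cDC2. Here the 2 CD103-bearing libraries were high and the other 2 low. Of the 15 measured cDC1 markers, 11 reached 10 CPM, of which Itgae and Cd24a were 2-fold higher and none was lower. Over all 15, 4 were 2-fold higher, with Xcr1 and Gcsam, and 1, Cd8a, was lower. The factor genes Batf3 (12.6 CPM in cDC2 and 16.2 in CD103int DC) and Irf8 (226 CPM in cDC2 and 193 in CD103int DC) and the receptor Clec9a (10.5 CPM in cDC2 and 11.4 in CD103int DC) were within 2-fold. Xcr1, the cDC1 chemokine receptor, was below the minimum in both, at 1.72 and 9.13 CPM. The 15 markers summed to 4142, 1369, 1837 and 1556 CPM and none was at 0 in any library; the part of cDC1 cells in the genes that were high in both cDC1 and the CD103int DC was not tested.

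Among genes shared by conventional DC, Zbtb46, a transcription factor typical of conventional DC, was at 152, 22, 47.5 and 20.9 CPM and thus 2.16-fold (2.01 to 2.32) higher in the CD103int DC than in cDC2. It was the only 1 of 8 tested pan-DC markers past 2-fold. Flt3, the receptor that DC progenitors depend on, was at 179, 15.8, 21 and 32.6 CPM. For both genes cDC1 was far above the other libraries, and the cDC2 library was near or below the macrophage library. For Flt3 the CD103int DC library was below the macrophage library too. The 9 measured pan-DC markers summed to 2205, 1822, 1702 and 1094 CPM. Of the 10 tested cDC2 markers 3 were 2-fold higher and none lower. They were Il1rl1, Cd209a and Mgl2. Irf4, the cDC2 factor, was at 152, 38, 71.6 and 49.9 CPM, a difference of 0.90, and Clec10a, a galactose-binding lectin, at 191, 44.2, 65.2 and 57.7 CPM. Sirpa (1062 CPM in cDC2 and 837 in CD103int DC), Clec12a (189.6 CPM in cDC2 and 138 in CD103int DC) and Cd7 (11 CPM in cDC2 and 7.52 in CD103int DC) were lower in the CD103int DC, within 2-fold.

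Genes of alternative activation, the state macrophages and DC take under interleukin-4 and interleukin-13, held Il1rl1 and Retnla, the 2 largest differences among genes above 0 in both libraries. Of 26 tested genes 6 were 2-fold higher and 1 lower, with a median of 0.45. Il1rl1 codes for ST2, the receptor of interleukin-33 (ENSMUSG00000026069.15, chromosome 1, 40429570 to 40465415, plus strand), and was at 0.224, 1.23, 21.9 and 3.72 CPM. Only the CD103int DC library was above 10 CPM. Retnla, a secreted resistin-like protein (ENSMUSG00000061100.4, chromosome 16, 48842551 to 48844461, plus strand), was listed at 0 in cDC1 and stood at 14, 142 and 29.9 CPM in cDC2, the CD103int DC and macrophages. Il1rl1 was thus 17.8-fold (13.7 to 23.7) and Retnla 10.2-fold (9.39 to 11) higher in the CD103int DC than in cDC2. Ear2, an eosinophil-associated ribonuclease, was at 11.1, 62, 228 and 63 CPM. Alox15, the 12/15-lipoxygenase, was at 6.28, 16, 51.6 and 3.99 CPM. In these 4 genes the CD103int DC library was the highest and no other came within 2-fold of it. Mrc1, the mannose receptor CD206, was at 187, 311, 633 and 379 CPM and Mgl2, the lectin CD301b, at 337, 368, 807 and 120.4 CPM. Within 2-fold but higher were Ccl17 (34.1 CPM in cDC2 and 61.1 in CD103int DC), Ccl22 (18.3 CPM in cDC2 and 31.6 in CD103int DC) and Arg1 (59.7 CPM in cDC2 and 96.2 in CD103int DC). Other genes of the list did not follow. Chil3, a chitinase-like protein, was at 83.4 CPM in cDC2 and 78.5 in CD103int DC, Stat6, the factor of the interleukin-4 receptor, at 209.6 CPM in cDC2 and 209 in CD103int DC, the receptor gene Il4ra at 206 CPM in cDC2 and 176 in CD103int DC, and Pparg at 39.8 CPM in cDC2 and 27.3 in CD103int DC. Ccl8 was the gene 2-fold lower. Receptor chains related to ST2 were within 2-fold, with its co-receptor Il1rap at 14.7 CPM in cDC2 and 17.7 in CD103int DC and the interleukin-18 receptor chain Il18rap at 10.3 CPM in cDC2 and 18.5 in CD103int DC. Il1rl1 was the only 1 of 25 tested interleukin and interferon receptor genes past 2-fold in either direction.

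Lectins and other uptake receptors were higher in 6 of 36 tested genes and lower in 1, with a median of -0.13. Asgr2, a chain of the receptor that clears desialylated glycoproteins, was at 3.61, 4.59, 29.5 and 1.43 CPM, 6.41-fold (5.56 to 7.43) above cDC2. The neighbouring genes Cd209a, Cd209e and Cd209d, relatives of the receptor DC-SIGN on chromosome 8 between 3743397 and 3878555, were higher together. Cd209a was at 257, 31.5, 78.8 and 68.9 CPM, Cd209e at 222, 6.98, 18.4 and 16.4 CPM and Cd209d at 117, 5.78, 13.9 and 9.95 CPM. All 3 were highest in cDC1 and lowest in cDC2, so the CD103int DC lay between them, near the macrophage level. Mgl2 lies beside Asgr2 on chromosome 11, between 70092644 and 70137550, and shares 13.1% of its 50-base stretches with other genes, chiefly Clec10a. The gene lower by 2-fold was Siglece, an inhibitory receptor for sialic acid, at 2.98, 21, 8.27 and 11 CPM. Lectins that sense fungi and dead cells stayed within 2-fold, among them Clec7a (1044 CPM in cDC2 and 816 in CD103int DC), Clec4n (514 CPM in cDC2 and 471 in CD103int DC) and Clec4e (88.7 CPM in cDC2 and 58.6 in CD103int DC).

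Among genes of vitamin A handling 2 of 9 tested were 2-fold higher, and among enzymes of lipid mediators 2 of 20 were higher and 1 lower, with medians of 0.49 and 0.01. Aldh1a2, which makes retinoic acid from retinaldehyde (ENSMUSG00000013584.5, chromosome 9, 71215789 to 71296243, plus strand), was at 0.204, 1.62, 18.7 and 1.61 CPM. It was 11.6-fold (9.16 to 14.8) higher in the CD103int DC than in cDC2, and the other 3 libraries stayed under 2 CPM. Dhrs9, a dehydrogenase that acts on retinol, was at 10.3, 12.3, 27.8 and 7.2 CPM. The other 7 tested genes of vitamin A handling were within 2-fold. The nuclear receptor genes Rxra (47.8 CPM in cDC2 and 75.2 in CD103int DC), Rarg (30.03 CPM in cDC2 and 44.1 in CD103int DC) and Rara (62.9 CPM in cDC2 and 73.8 in CD103int DC) were higher by less, and Fabp5, a carrier of fatty acids and retinoic acid, was lower (234 CPM in cDC2 and 150.4 in CD103int DC). Among 20 enzymes of lipid mediators Alox15 and Ephx1, an epoxide hydrolase, were 2-fold higher, with Ephx1 at 5.38, 19.3, 46.9 and 3.77 CPM. Hpgds, which makes prostaglandin D from prostaglandin H, was lower, at 5.48, 14.3, 4.96 and 12.6 CPM. Alox5, the first enzyme of leukotriene synthesis, was at 198, 13.2, 26.5 and 9.16 CPM, a difference of 0.95. Slc27a3, of the fatty acid transport protein family, was at 11, 12.7, 60.2 and 6.03 CPM and Slc9a4, a sodium-proton exchanger that neighbours Il1rl1, at 1.35, 5.28, 16 and 2 CPM. They were the only 2 past 2-fold of 134 tested solute carriers. Lyz1, the lysozyme known from Paneth cells, was at 1.26, 24, 81.3 and 22.4 CPM, while its copy Lyz2, the usual myeloid lysozyme, was at 3302 CPM in cDC2 and 3479 in CD103int DC. Lyz1 shares 16.1% of its 50-base stretches, chiefly with Lyz2, and Ear2 shares 41.5% with its own copies.

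Surface receptors for other signals were higher in scattered families. Cd226, an activating receptor that binds the nectin-like proteins Pvr and Nectin2, was at 16.9, 7.87, 48.1 and 7.53 CPM, 6.11-fold (5.47 to 6.83) above cDC2. Its ligand gene Pvr was at 56.3 CPM in cDC2 and 43.5 in CD103int DC. Btla, an inhibitory receptor that binds Tnfrsf14, was at 116, 4.92, 12.5 and 12.5 CPM, and Cd200r3, a relative of the CD200 receptor, at 10.03, 11.6, 25.6 and 2.36 CPM. With Cd6 (5.28 CPM in cDC2 and 13.1 in CD103int DC) these were the 4 of 27 costimulatory and checkpoint genes that were 2-fold higher, and Cd276 (B7-H3) was the 1 that was lower (27.8 CPM in cDC2 and 13.4 in CD103int DC). The ligands Cd80 (34.7 CPM in cDC2 and 31.2 in CD103int DC) and Cd86 (131 CPM in cDC2 and 117 in CD103int DC), which activate T cells, and Cd274, PD-L1 (216 CPM in cDC2 and 138 in CD103int DC), were within 2-fold. Gfra2, the receptor of neurturin, was at 96.9, 13.9, 77.3 and 15.3 CPM and Fgfr1, a fibroblast growth factor receptor, at 81.4, 14, 62.3 and 10.8 CPM. Both were high in cDC1 and the CD103int DC and low in cDC2 and macrophages. Tgfbr1, the type I receptor for transforming growth factor beta, was lower, at 46.5, 225, 106 and 219 CPM, and was the other growth factor receptor gene past 2-fold among 33. Wnt11, a secreted Wnt ligand, was at 1.16, 1.82, 13 and 10.9 CPM, high in the CD103int DC and macrophages.

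Fc receptor genes split. Fcrls, a relative of the Fc receptors best known from microglia (ENSMUSG00000015852.13, chromosome 3, 87250758 to 87263738, minus strand), was at 8.5, 21.8, 165 and 16.4 CPM and thus 7.6-fold (7.12 to 8.12) higher in the CD103int DC than in cDC2. The 3 other libraries lay between 8.5 and 21.8 CPM. Fcgr4, an activating receptor for immunoglobulin G, was lower, at 10.9, 129, 53.9 and 103 CPM, and the high-affinity receptor Fcgr1 was lower within 2-fold, at 76.5, 334, 173 and 608 CPM. Fcgr3 (338 CPM in cDC2 and 331 in CD103int DC) and the inhibitory Fcgr2b (508 CPM in cDC2 and 489 in CD103int DC) were nearly level. Of 31 tested genes of the CD300, SIRP, LILR, PIR and TREM families 1 was higher and 4 were lower, with a median of -0.34. The higher gene was Cd300lg (5.65, 5.45, 21.4 and 13.5 CPM), a receptor known from endothelium. The lower genes were Cd300e (3.04, 48.2, 13.1 and 62.9 CPM), Lair1, an inhibitory collagen receptor (40.5, 114, 48.9 and 103 CPM), and the neighbours Trem3 (12.5 CPM in cDC2 and 5.23 in CD103int DC) and Treml4 (24.4 CPM in cDC2 and 9.58 in CD103int DC).

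Matrix genes differed both ways, with 3 of 31 tested higher and 6 lower. Fn1, fibronectin, was at 109, 1195, 3325 and 1422 CPM, 2.78-fold (2.76 to 2.81) above cDC2 and highest in the CD103int DC. Mmp19, a matrix metalloproteinase, was at 9.67, 49.3, 106 and 102 CPM and Adam19, a membrane protease, at 119.6, 10.5, 24.8 and 15.6 CPM. Mmp13, a collagenase, was lower, at 3.51, 75.4, 33.4 and 25.9 CPM. All 5 collagen genes that reached 10 CPM were lower, but they reached it only through cDC2, so the minimum itself favoured that direction. Col1a1 stood at 4.59, 20.1, 4.81 and 8.52 CPM and Col3a1 at 2.04, 14.3, 3.45 and 6.66 CPM, with Col6a3, Col6a1 and Col15a1 between 10.7 and 14.1 CPM in cDC2. Of all 19 measured collagens 7 were 2-fold lower, none was higher and 17 were below 0. Markers of fibroblasts, 7 of which were measured, summed to 15.5, 52.8, 15.4 and 27 CPM in the 4 libraries, 6 were below 0 and none was at 0 in either of the 2 libraries; their part in the collagen differences was not tested. The list median, 0.17, turned to -0.30 with no minimum and to -0.37 at a minimum of 1 CPM.

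The lower genes included 6 monocyte markers known from patrolling, Ly6c-low monocytes. The list did not move as 1: Ear2, also in it, was 2-fold higher, at 62 CPM in cDC2 and 228 in the CD103int DC. Ace, the angiotensin-converting enzyme (ENSMUSG00000020681.14, chromosome 11, 105967945 to 105989964, plus strand), was at 4.99, 93.8, 19.1 and 433 CPM, 4.91-fold (4.59 to 5.25) below cDC2 in the CD103int DC and highest in macrophages. Cd300e was 3.69-fold (3.39 to 4.01) lower. Adgre4, an adhesion receptor, was at 2.36, 57.2, 19.7 and 195 CPM, and Treml4, Eno3 (17.2 CPM in cDC2 and 6.2 in CD103int DC) and Gngt2 (69.6 CPM in cDC2 and 32.8 in CD103int DC) were lower with it. Cx3cr1, the fractalkine receptor, was at 61.3, 40.4, 13 and 94.5 CPM, and here cDC1 and macrophages were also above the CD103int DC. Of 18 tested monocyte markers 6 were lower and 3 higher, with a median of -0.62. The 3 higher genes were Ear2, Fn1 and F13a1, the clotting factor XIII chain (2.59, 23, 53.5 and 237 CPM). Ly6c2, a marker of classical monocytes, was at 233, 236, 132 and 1371 CPM, lower within 2-fold, while Ccr2, their homing receptor, was at 254, 701, 832 and 978 CPM. The summed level of the list ran the other way, from 3679 CPM in cDC2 to 5612 in the CD103int DC, of which Fn1 alone held 1195 and 3325 CPM.

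Macrophage genes were lower as a group. Of 19 tested markers 5 were 2-fold lower, 1 (Mrc1) was higher and 18 were below 0, with a median of -0.72 against 0.02 over all genes measured at 10 CPM or more. C1qa, a chain of the complement starter C1q, was at 36.7, 572, 228 and 105 CPM, 2.51-fold (2.46 to 2.56) lower, and its neighbour C1qc on chromosome 4 at 32.4, 450.5, 191 and 88.4 CPM. C1qb, the other chain, was at 631 CPM in cDC2 and 328 in CD103int DC, just within 2-fold. In all 3 the cDC2 library was the highest of the 4. Apoe, the apolipoprotein that carries cholesterol, was at 14.4, 175, 67.5 and 243 CPM and Gpnmb, a lysosomal glycoprotein of lipid-laden macrophages, at 4.89, 129, 54.5 and 190.3 CPM. Nr1h3, the nuclear receptor LXR alpha that drives cholesterol efflux, was at 6.65, 109, 50.004 and 105 CPM. These 3 were the lower ones of 24 tested genes of lipid uptake and efflux, none of which was 2-fold higher. Spp1 (38.9 CPM in cDC2 and 38.2 in CD103int DC), Trem2 (25 CPM in cDC2 and 21.6 in CD103int DC) and Csf1r (1096 CPM in cDC2 and 925 in CD103int DC) were within 2-fold. The factor gene Maf (148 CPM in cDC2 and 85.7 in CD103int DC) was lower, also within 2-fold. The 24 measured macrophage markers summed to 1149, 5514, 3794 and 5224 CPM, so the sum in the library labelled cDC2 was as high as in macrophages, and none was at 0 in cDC2 or the CD103int DC. How far macrophages within the sorted cDC2 take part in these differences was not tested. Lgmn, the endosomal protease legumain, was at 104, 939, 449 and 886 CPM, and was 2-fold lower, as was Acp5, tartrate-resistant acid phosphatase, at 83.9 CPM in cDC2 and 37.3 in CD103int DC. Ms4a7, a membrane protein of macrophages, was at 5.85, 114, 40.2 and 75.2 CPM. Of the 7 tested Ms4a genes it was the only 1 past 2-fold, with a family median of -0.78.

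Among chemoattractant receptors and chemokine ligands with at least 10 CPM no gene was 2-fold higher, although Xcr1, below that minimum, was. Of 15 tested receptors 3 were lower, with a median of -0.54. Besides Cx3cr1 they were Fpr1 (11.3 CPM in cDC2 and 3.15 in CD103int DC) and Fpr2 (41.1 CPM in cDC2 and 15.9 in CD103int DC), neighbouring receptors for bacterial formyl peptides, and Fpr2 shares 31.5% of its 50-base stretches with other genes. C5ar1 (126 CPM in cDC2 and 70.2 in CD103int DC) and C3ar1, the anaphylatoxin receptors, were lower within 2-fold. Of 16 tested chemokine ligands 3 were lower. Ccl8 was at 1.04, 21.3, 5.54 and 5.64 CPM and its neighbour Ccl12 at 0.387, 11.1, 4.32 and 12 CPM, while Ccl5, a chemoattractant of T cells, was at 6.05, 26.4, 10.5 and 39.5 CPM. The T-cell chemokines Cxcl9 (343 CPM in cDC2 and 195 in CD103int DC) and Cxcl16 (468 CPM in cDC2 and 273 in CD103int DC) were lower within 2-fold. Ccl6 (651 CPM in cDC2 and 985 in CD103int DC) and Ccl9 (490.0 CPM in cDC2 and 655 in CD103int DC) were higher within 2-fold. The median of the ligands, -0.50, became 0.01 at a minimum of 30 CPM, so no direction is given for the list. Among complement and coagulation genes, 22 tested, F13a1 and F2rl2, a thrombin receptor (8.36 CPM in cDC2 and 20.6 in CD103int DC), were 2-fold higher and C1qa and C1qc lower. Gpr31b (22.4 CPM in cDC2 and 6.38 in CD103int DC) and Gpr31a (10.3 CPM in cDC2 and 3.53 in CD103int DC) were also lower, but 87.6% and 67% of their 50-base stretches occur elsewhere, so that their values are uncertain.

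Interferon-response genes were lower by less than 2-fold, in nearly every gene. Of 60 tested type I interferon genes none was 2-fold apart in either direction, yet the median was -0.47 and 59 were below 0. Irf7, the factor that amplifies the response, was at 473, 636, 366 and 1648 CPM, a difference of -0.80. Isg15, a ubiquitin-like protein, was at 77.8, 156, 101 and 551 CPM and Ifit3, an RNA-binding antiviral protein, at 79, 178, 113 and 657 CPM. Mx1, an antiviral GTPase, was at 30.6, 47.9, 31.2 and 214 CPM. In these genes the macrophage library was the highest and the CD103int DC below cDC2. Of 30 tested interferon gamma genes 1, Fcgr4, was 2-fold lower, 29 were below 0 and the median was -0.45. Gbp2, a guanylate-binding protein, was at 392 CPM in cDC2 and 309 in CD103int DC. Both lists together gave 88 of 90 genes below 0, beside 3812 of 8119 over all genes measured at 10 CPM or more. The genes of a list share their regulators and are not independent of each other. Macrophage markers were lower alongside, with sums of 5514 CPM in cDC2 and 3794 in the CD103int DC, and their part here was not tested.

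Among genes of antigen presentation, none of 21 tested MHC class I genes was 2-fold apart, and 20 were below 0 with a median of -0.34, such as H2-K1 (2016 CPM in cDC2 and 1464 in CD103int DC) and B2m (2147 CPM in cDC2 and 1549.6 in CD103int DC). MHC class II genes were level, with a median of -0.01 over 12. H2-Ab1 was at 5553 CPM in cDC2 and 5454 in CD103int DC, Cd74, the invariant chain, at 9057 CPM in cDC2 and 9384 in CD103int DC, and Ciita, the factor that controls them, at 395 CPM in cDC2 and 437 in CD103int DC. H2-DMb2, a chain of the peptide loader, was higher within 2-fold (117 CPM in cDC2 and 200.3 in CD103int DC) and H2-Eb2 2-fold lower (18.8 CPM in cDC2 and 8.55 in CD103int DC).

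Large housekeeping lists showed no gene past 2-fold at 10 CPM or more. This held for 84 cytosolic ribosomal protein genes and 81 genes of oxidative phosphorylation, with medians of 0.07 each, 44 proteasome genes, 81 genes of Rab vesicle traffic and 89 phosphatases. Of 105 kinases only Map3k6 was past it (9.57 CPM in cDC2 and 22 in CD103int DC). Among lineage transcription factors 3 of 57 were past 2-fold, beside 181 of 8119 (2.23%) over all genes measured at 10 CPM or more. Egr3, an immediate early factor, was higher with Zbtb46, at 8.11 CPM in cDC2 and 18.3 in CD103int DC, and Nr1h3 was lower. Of 35 Toll-like, NOD-like and RNA-sensing receptors 1 was past it, Tlr12, at 20.3 CPM in cDC2 and 8.88 in CD103int DC. None of 15 tested cytokine and growth factor genes was, including Il1b (946 CPM in cDC2 and 735 in CD103int DC) and Tnf (54.3 CPM in cDC2 and 47.2 in CD103int DC).

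**Figure D3:**
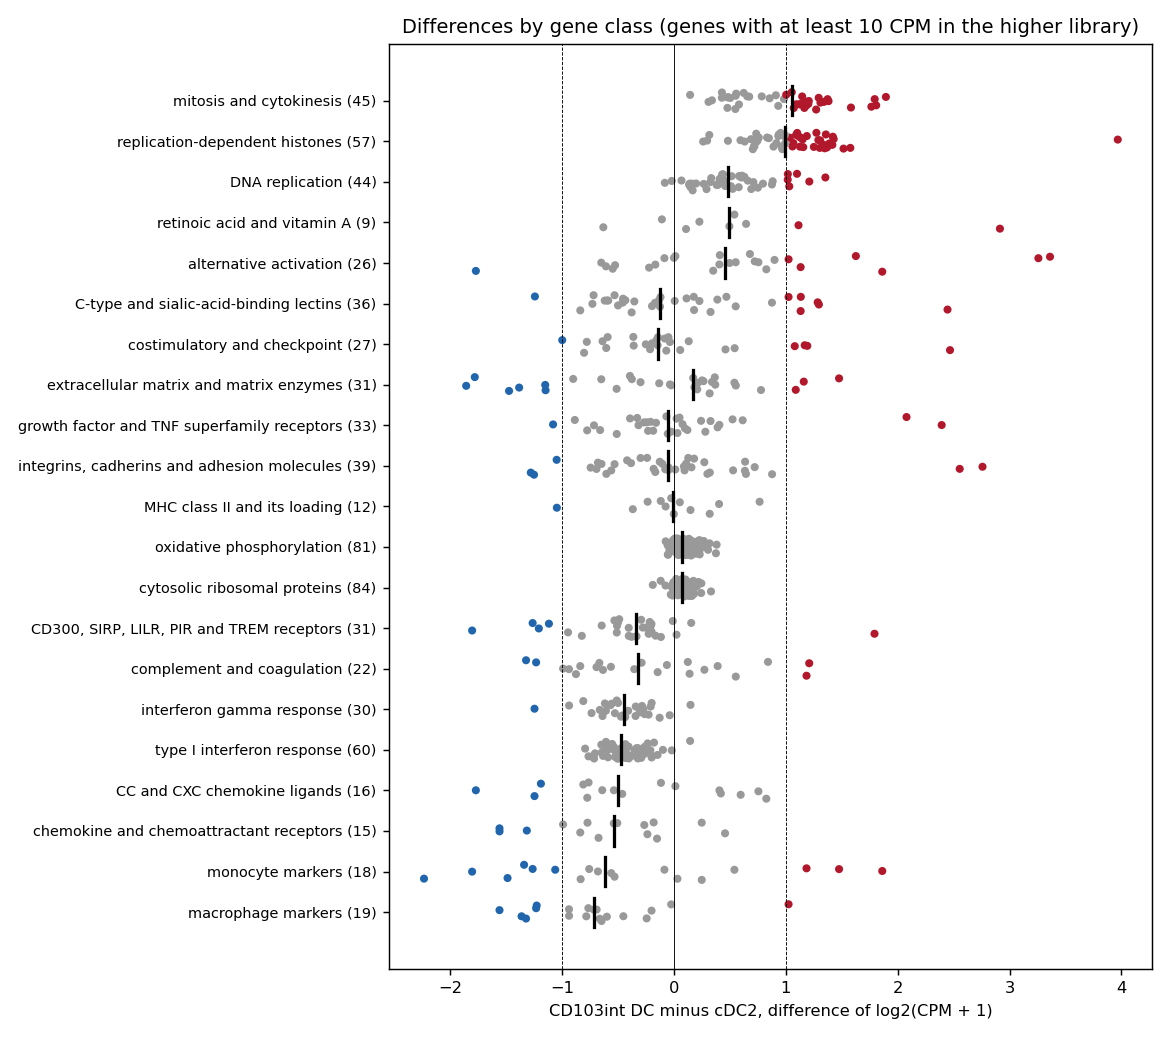
Difference of log2(CPM + 1), CD103int DC minus cDC2, for each gene with at least 10 CPM in the higher library, by list (number of genes in brackets; a gene can stand in several lists); black bars are list medians, dashed lines 2-fold, red and blue points genes past it. Mitosis genes and histones lie around 1, ribosomal protein genes at 0.07 and macrophage markers around -0.72.

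Genes outside the functional lists made up 29 of the higher and 8 of the lower genes, although Gngt2 and Cd4 among the lower ones stand in marker lists (monocytes and T cells). Hr, the corepressor known from the hairless mouse, was at 52, 71.9, 228 and 17.6 CPM, highest in the CD103int DC and lowest in macrophages. Several are known from the cytoskeleton or its attachment, such as Palld, palladin (5.4, 8.28, 30.3 and 4.97 CPM), Syne2, which ties the nucleus to actin (34.7, 6.38, 23.7 and 16.9 CPM), Pdlim1 (26.1, 8.71, 28.7 and 19.9 CPM) and Ahnak, a giant scaffold (2253, 2482, 4972 and 6789 CPM). Cavin1, a coat protein of caveolae, was at 2.73, 3.54, 12.2 and 3.59 CPM. Mt1, metallothionein, was at 6.75, 17.9, 39.3 and 7.05 CPM. Some belong to proliferation by what they are known for, although the lists did not hold them: Pclaf, a partner of Pcna (9.16 CPM in cDC2 and 22.7 in CD103int DC), Cit, a kinase of cytokinesis (7.09 CPM in cDC2 and 20.05 in CD103int DC), Knstrn, a kinetochore protein (4.48 CPM in cDC2 and 10.7 in CD103int DC), and Bard1, the partner of Brca1 (4.87 CPM in cDC2 and 11.2 in CD103int DC). Sept3, listed with the cytoskeleton, was at 265, 13.8, 59.97 and 20.1 CPM. Ryr1, the calcium release channel of skeletal muscle, was at 13.3, 2.35, 12.1 and 5.17 CPM and Cgnl1, a junction protein, at 8.44, 2.44, 13.7 and 2.64 CPM. Among the 8 lower genes Dnase1l3, a secreted nuclease that digests DNA of dead cells, was at 111, 168, 70.1 and 51.2 CPM, Pou2f2, the factor Oct-2, at 4.46, 29.1, 13 and 45.1 CPM and Cd4 at 17, 23.3, 6.36 and 9.97 CPM. Gm10359 (5.07 CPM in cDC2 and 41.1 in CD103int DC) is a copy in which every 50-base stretch also occurs in Gapdh, and its value cannot be told from reads of that gene.

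The rule did not use the cDC1 and macrophage libraries, and the levels there divided the genes further. Of the 127 higher genes 75 (59.1%) were highest in the CD103int DC, 47 (37.0%) in cDC1 and 5 (3.94%) in macrophages. Over all 8119 genes these shares were 19.6%, 28.2% and 38.9%, but a gene picked as higher in the CD103int DC than in cDC2 cannot be highest in cDC2, so the shares are not like for like. Of the 58 proliferation genes 34 were highest in the CD103int DC, 24 in cDC1 and none in macrophages. Only 28 of the 127 were 2-fold or more above both other libraries as well. They include Il1rl1, Retnla, Aldh1a2, Fcrls, Cd226, Asgr2, Slc27a3, Ear2, Lyz1, Hr, Alox15, Fn1, Mgl2, Dhrs9 and 1 proliferation gene, Mki67. At the other end 10 genes were 2-fold or more higher in cDC1 than in the CD103int DC, such as Itgae, Cd209a, Cd209e, Btla, Sept3 and Zbtb46. Of the 54 lower genes 31 (57.4%) were highest in cDC2, 22 (40.7%) in macrophages and 1, Tlr12, in cDC1. Over all 8119 genes 13.3% were highest in cDC2, and the macrophage share, 38.9%, was near that of the lower genes. A gene picked as lower cannot be highest in the CD103int DC, so these shares are not like for like either. The median level of the lower genes was 5.43, 33.5, 13 and 39.8 CPM, and that of the higher genes 19.4, 9.16, 24.4 and 7.05 CPM.

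**Figure D4:**
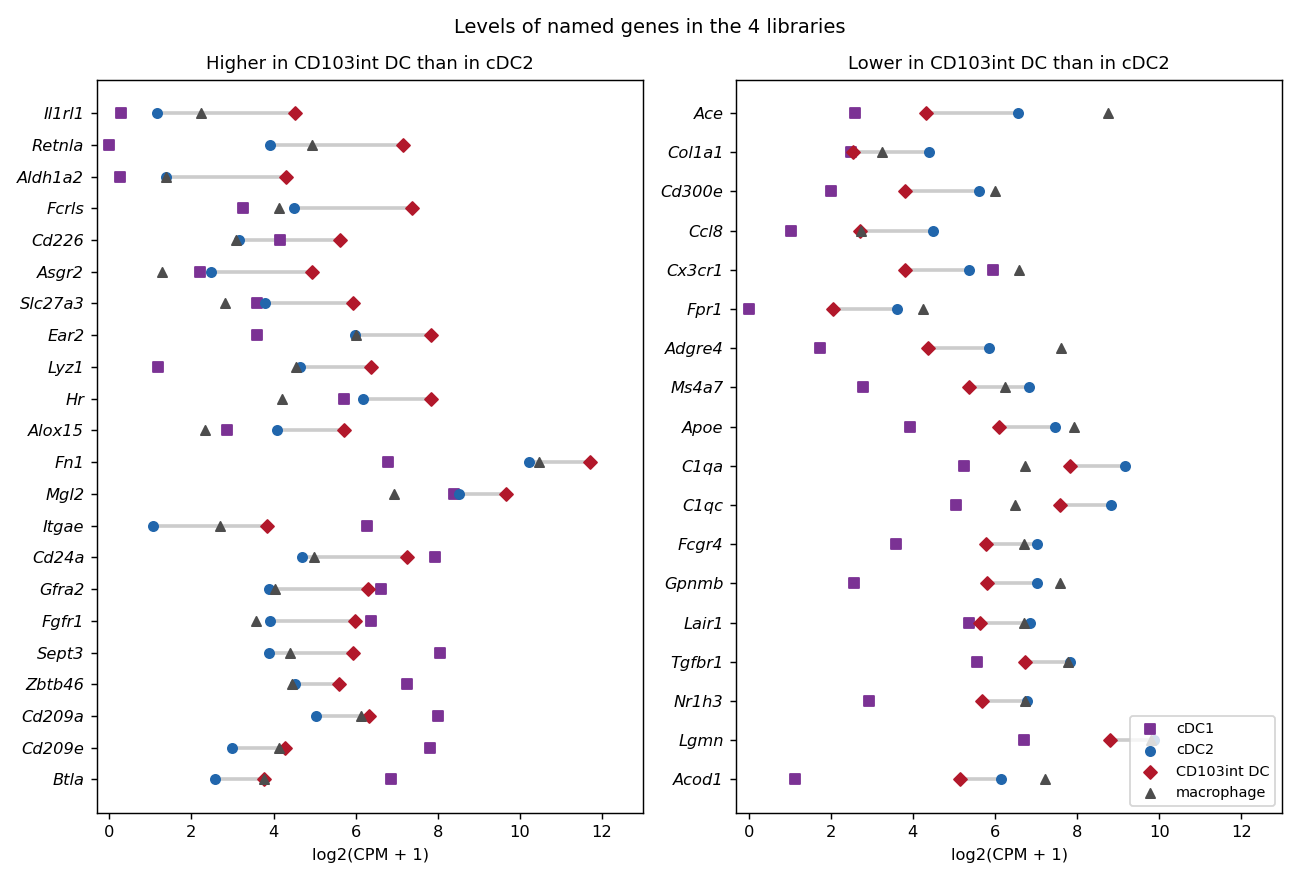
Levels of 22 higher (left) and 18 lower genes (right) in the 4 libraries, as log2(CPM + 1), with 1 symbol per library and a grey line from cDC2 to CD103int DC. Genes from Il1rl1 to Mgl2 are highest in the CD103int DC, those from Itgae to Btla in cDC1, and every lower gene shown except Cx3cr1 is lowest in cDC1.

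**Figure D5:**
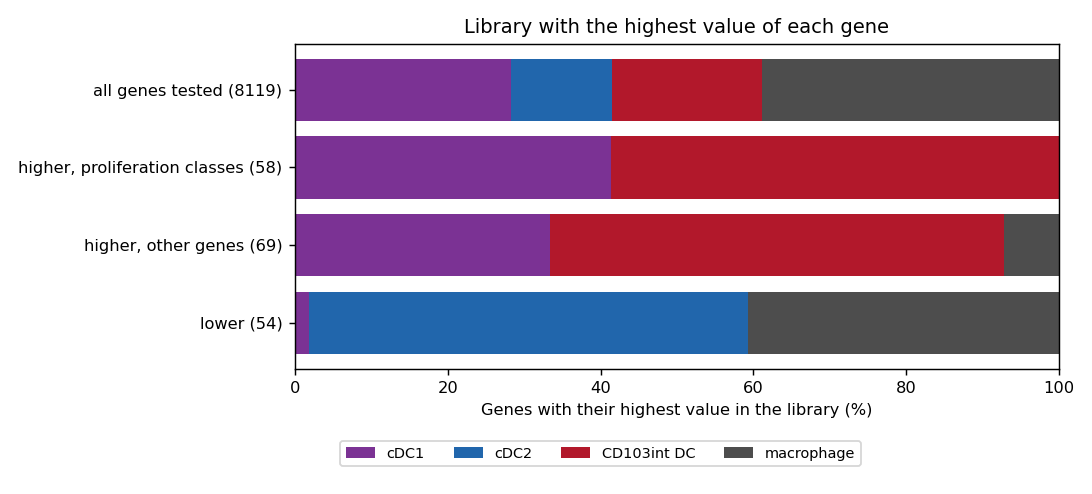
Share of genes (percent) with their highest level in each of the 4 libraries, for all 8119 genes with at least 10 CPM in the higher of cDC2 and CD103int DC and for the higher and lower genes. The higher genes divide between CD103int DC and cDC1. Of the lower genes 40.7% are highest in macrophages, near the 38.9% over all 8119 genes.

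Markers of other cells were summed next, and most of these sums were lower in the CD103int DC. T-cell markers, 15 measured, summed to 125 CPM in cDC2 and 101 in the CD103int DC, 13 were below 0 and none was at 0. Cd3e, which defines T cells, was at 1.79 and 0.0174 CPM, the second value being 1 read. Over all 15, 9 were 2-fold lower and 2 higher; of the 3 that reached 10 CPM, Cd4 was 2-fold lower and Cd6 higher, and some myeloid cells express both. NK-cell markers, 9 measured, summed to 114 and 85.7 CPM and all were below 0. The sums were 33.8 and 23.9 CPM for 3 B-cell markers, 72 and 40.9 for 4 neutrophil markers and 174 and 111 for 4 endothelial markers, and none of these was at 0. The sums of 3 epithelial or tumour cell markers ran the other way, at 128 and 205 CPM, of which Cdh1 held most, with Krt8 at 1.29 and 1.03 CPM. So did those of 2 eosinophil markers, at 3.45 and 7.38 CPM. Without the markers of T, NK, B, endothelial and neutrophil cells and of fibroblasts 126 higher and 51 lower genes remained, and the part of such cells in the other differences was not tested. Exons of 14 of the 181 genes overlap exons of another gene, over 10% of their length in 8, among them Kif20a with Cdc23, Mmp19 with Tmem198b and Abi3 with Zfp652. All 8 overlaps are with a gene on the opposite strand. The kit keeps strand, per the labels, but the strand setting of the counting is not given in the sources used here.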

How the data were processed

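RNA of 4 sorted populations was sequenced, 1 library each, from total RNA with a directional kit per the labels' protocols. The authors deposited 1 table of a normalized expression signal, which by its name is CPM with TMM scaling of the library sizes and a gene filter. The sources used here do not give the aligner, the counting program or the genome build. All 13976 gene identifiers and symbols matched GENCODE release M21 (GRCm38), from which coordinates were taken. Values came in steps of 1/100 of what was taken as 1 read, and 71.3% (cDC2) and 70.6% (CD103int DC) were whole multiples at a tolerance of 0.001, so that no count test was run. Differences were taken on log2(CPM + 1), which understates the fold of low genes, with a minimum of 10 CPM in the higher library and a threshold of 2-fold, in Python 3.11.15 with pandas 2.3.3 and scipy 1.17.1. Folds of single genes are ratios without the added 1. The calculation was tested on simulated data. Genes were named by rank of difference, by list (those past 2-fold and those of the highest level), by nearness to the threshold and by the sort; values of a few other genes were chosen after they were seen. The comparison, its members and the lists were chosen with earlier results of these data known. Promoters came from RefSeq (GRCm38.p6), and 135 of the 181 genes matched.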

Additional observations from a re-analysis of the deposited data

How the results depend on the processing

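With 1 library per population no replicate could be left out. No paired analysis was possible because each group has 1 library. Of the 127 higher and 54 lower genes, a pseudocount of 5 left 66 and 32, a minimum of 30 CPM 53 and 28, and a threshold of 3-fold 30 and 7. A threshold of 1.5-fold gave 343 and 243, and no minimum, like a minimum of 1 CPM, gave 247 and 125. Without the 3 proliferation lists, an alternative added after the values were seen, 69 higher genes were left. Under 3 other scalings, which multiplied the CD103int DC values by 0.994 to 1.003, the counts ran from 125 to 130 higher and from 53 to 56 lower. All 180 genes with a fold kept their direction, but factors so near 1 could not turn a gene picked at 2-fold. Of 582 list medians under the alternatives 13 changed sign, in 9 lists; those of matrix genes and chemokine ligands are given with their lists, and that of ribonuclease and antimicrobial genes, 0.19, became -0.01 with no minimum or a minimum of 1 CPM. Precision from depth was high, and 1 library per population limits all of these values.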

Other observations

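Sterol and fatty acid synthesis genes were higher without a gene past 2-fold, with a median difference of 0.23 over 27 tested genes, and S100 and alarmin genes likewise, with 0.30 over 13. The 13 tested genes of the mitochondrial genome had a median of -0.19, and all 15 measured ones summed to 82845 CPM in cDC2 and 64471 in the CD103int DC. The histone genes aside, members stood beside each other on the chromosome in several places. Higher pairs were Il1rl1 with Slc9a4 (chromosome 1, 40429570 to 40630725) and Asgr2 with Mgl2 (chromosome 11), and lower pairs were Fpr1 with Fpr2 (chromosome 17, 17876471 to 17893952), C1qc with C1qa (chromosome 4, 136889804 to 136898803), Ccl12 with Ccl8 (chromosome 11, 82101845 to 82116799) and Trem3 with Treml4 (chromosome 17). In each of these pairs except Il1rl1 with Slc9a4, which have 3 tested genes in their span, the members were the only 2 tested genes in the span.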
